A study of Vitis vinifera with 6 samples.

Results

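The gene models described here are the 234 that the array's annotation assigned to chromosome 18 of grapevine (Vitis vinifera) without a position on it. They were chosen by their label alone, all probe sets of the chromosome's unplaced sequence, out of 29549 probe sets on the array. The label was singled out because an earlier look at these arrays had found many rises under it, so every count of changed members below is a description and carries no test. Expression was measured in the skin of Pinot Noir berries on 6 one-colour arrays. In the UV group, 3 samples came from separate berry clusters exposed for 1 hour to a UV-C lamp (253.7 nm) at 50 cm. In the dark group, 3 samples came from separate clusters kept for 1 hour under a box beside them. All samples were labelled wild type and came from the vineyard, and the labels give no berry age or stage.

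UV-C is a short wavelength that hardly reaches the ground in sunlight, and in grape berries it is used as an elicitor, a stress that switches on defence metabolism such as the synthesis of stilbenes like resveratrol. Genome assemblies keep, beside each ordered chromosome, sequence that could be assigned to that chromosome but not ordered along it. Such sequence often holds repeated or closely similar gene copies, which are hard to place, and many plant gene families lie as rows of similar neighbours.

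None of the 29549 identifiers matched an entry of the reference gene table and the files do not pair them with names, so genes are given by annotation block and running number, no gene is named, and the labelled tissue could not be checked against marker genes. Of the 234 members, 207 carry a block and a number. Block 82 holds 110, block 126 holds 42, block 111 holds 20, block 152 holds 18 and block 170 holds 17. The other 27 carry the prefix GSVIVT and a serial number only. By source, 196 members are JGVV models, 11 PDVV models and 27 GSVIVT models. Block and number are taken as a label of neighbourhood, and their order along the sequence could not be checked. In 9 cases a JGVV and a PDVV model share a block and a number, so the prefixes may be numbered separately.

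The 6 arrays had median intensities of 8967 to 11200 units over all probe sets. A set counted as above background where it exceeded the mean of the random-sequence control probes by 2 SD, a limit of 1156 to 1434 units depending on the array. All arrays carried a single slide identifier with the dark arrays on the positions before the UV arrays, so slide position and group cannot be told apart.

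In the dark, the unplaced chromosome 18 models were dimmer than the array as a whole. Their median intensity was 4690, 4256 and 5357 units in dark replicates 1, 2 and 3, against 11200, 9155 and 10658 units for all sets. The 2045 placed models of chromosome 18 stood at 11644, 9402 and 11003 units on the same arrays. The 504 unplaced models of other chromosomes were also dimmer than all sets, but less so, at 8992.5, 7136.5 and 8249.5 units. The gap between the chromosome 18 members and all sets exceeded the spread between dark arrays and was present on each of them. After UV the median of the unplaced models was 5067, 5292 and 4647 units, against 8967, 9591 and 9519 units for all sets. The unplaced members were above background on all 6 arrays in 160 cases (68.4%) and on no array in 38 (16.2%). For all probe sets these shares were 82.8% and 9.09%, and for the unplaced models of other chromosomes 79.4% and 13.1%. Each mean is over 4 probes for most sets, and the probes of a member varied by a median coefficient of variation of 0.443, against 0.412 for all sets.

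After UV, 76 of the 234 members were higher and 26 lower in the fit over the whole array (limma, Benjamini-Hochberg adjusted p under 0.05), and 132 were not called. Over all probe sets 15.8% were called higher and 20.9% lower, while the members' shares were 32.5% and 11.1%. Rises of over 1 on the log2 scale, a doubling, were called in 39 members (16.7%), against 5.05% of all sets. Falls of over 1 were called in 2 members (0.855%), against 2.72% of all sets. These shares restate what singled out the label, and nothing is read from them. In bulk skin, more cells of a type and more RNA per cell cannot be told apart. Without scaling between arrays the members' calls were 50 higher and 31 lower, against 76 and 26, while over all sets 9.95% were called higher and 22.2% lower. With dark replicate 1 left out 16 members were called lower, and with dark replicate 3 left out 17, while the share of all sets called lower went from 20.9% to 14% and 14.8%.

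The median log2 change of the 234 members was 0.08, with 0.16, 0.04 and 0.05 on UV replicates 1, 2 and 3 against the dark mean, and it was -0.06 without scaling between arrays. The median of all sets was -0.05, and -0.17 without that scaling. The members differed from the array most in the upper tail, as the cumulative plot by genome label shows. The label was singled out for its rises, so this tail restates that choice. The same holds for the quartiles and median calls that follow, and nothing is read from them. The upper quartile of the change was 0.50 for the unplaced members, 0.18 for the placed models of chromosome 18 and 0.17 for all sets. The lower quartiles were closer to each other, at -0.18, -0.28 and -0.28. The median called rise was 1.03 among members and 0.67 among all sets, and the median called fall was -0.46 against -0.51.

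**Figure D1:**
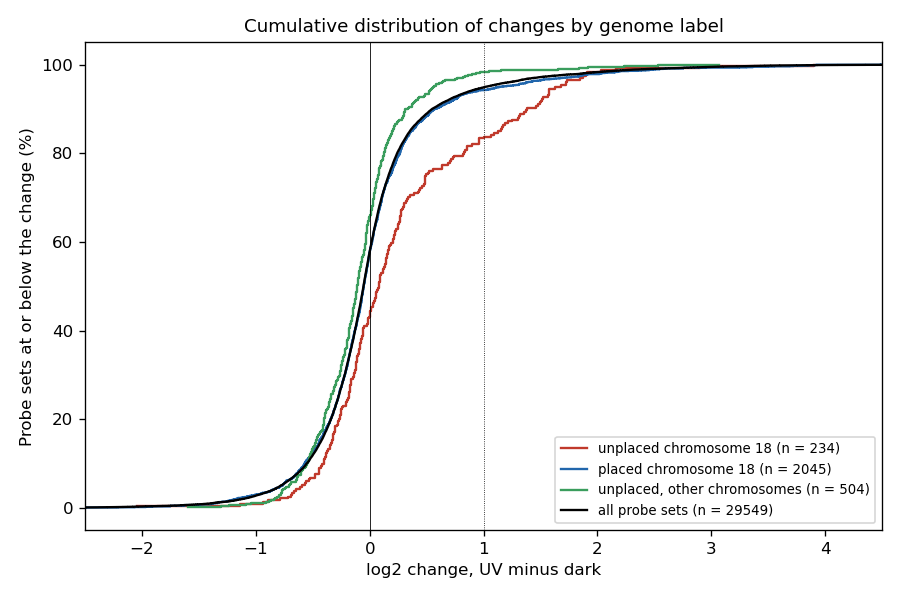
Cumulative share of probe sets (%) against the log2 change, UV minus dark, for the unplaced and placed models of chromosome 18, the unplaced models of other chromosomes and all probe sets; dotted line, a change of 1. The curve of the 234 unplaced members leaves the others above 0, with 16.7% of them called higher by over 1 against 5.05% of all sets. This restates the rises for which the label was singled out.

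Among the placed models of chromosome 18, 334 of 2045 (16.3%) were called higher, 117 (5.72%) by over 1, and 429 (21%) were called lower. The 504 unplaced models of the other chromosomes had 46 calls higher (9.13%), 8 of them (1.59%) by over 1, and 109 calls lower (21.6%). The 2565 models assigned to no chromosome lay near the array, with 416 higher (16.2%) and 138 (5.38%) by over 1. Whether the label differs from these groups was not tested.

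The rises were uneven over the blocks. In block 152, 12 of 18 models were higher and 10 of them by over 1. Block 82 held 40 rises and 12 falls among 110 models, with 20 rises of over 1. Block 111 held 6 rises and 2 falls among 20, 4 of the rises over 1. Block 170 held 5 rises and 2 falls among 17, 3 of the rises over 1. The 42 models of block 126 held 10 rises, none of them over 1, and 5 falls. The 27 GSVIVT models held 3 rises, 2 of them over 1, and 4 falls. On the whole array 227 of 2045 GSVIVT sets were called higher. Over all probe sets 15.8% were called higher, 5.05% higher by over 1, and 20.9% lower. Whether single blocks differ from these shares was not tested. Blocks 82 and 152 together supplied 30 of the 39 members that rose by over 1, and they hold 110 and 18 of the 234 members. Of all members 16.7% rose by over 1, so the 20 of 110 in block 82 largely follow its size. Without scaling between arrays the rises numbered 2 in block 126, 3 in block 170, 27 in block 82, 5 in block 111 and 10 in block 152. The share of all sets called higher was then 9.95%. The 40 rises of block 82 became 22 without dark replicate 1, 23 without dark replicate 2 and 25 with the replicate number as a block. Over all sets the share called higher went from 15.8% to 11.7%, 11.8% and 12.7% in these settings. The 10 rises of block 126 became 6 without dark replicate 2 and 6 without dark replicate 3, and the 5 of block 170 became 3 without dark replicate 2. Without dark replicate 3 the share of all sets called higher was 12.2%.

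**Figure D2:**
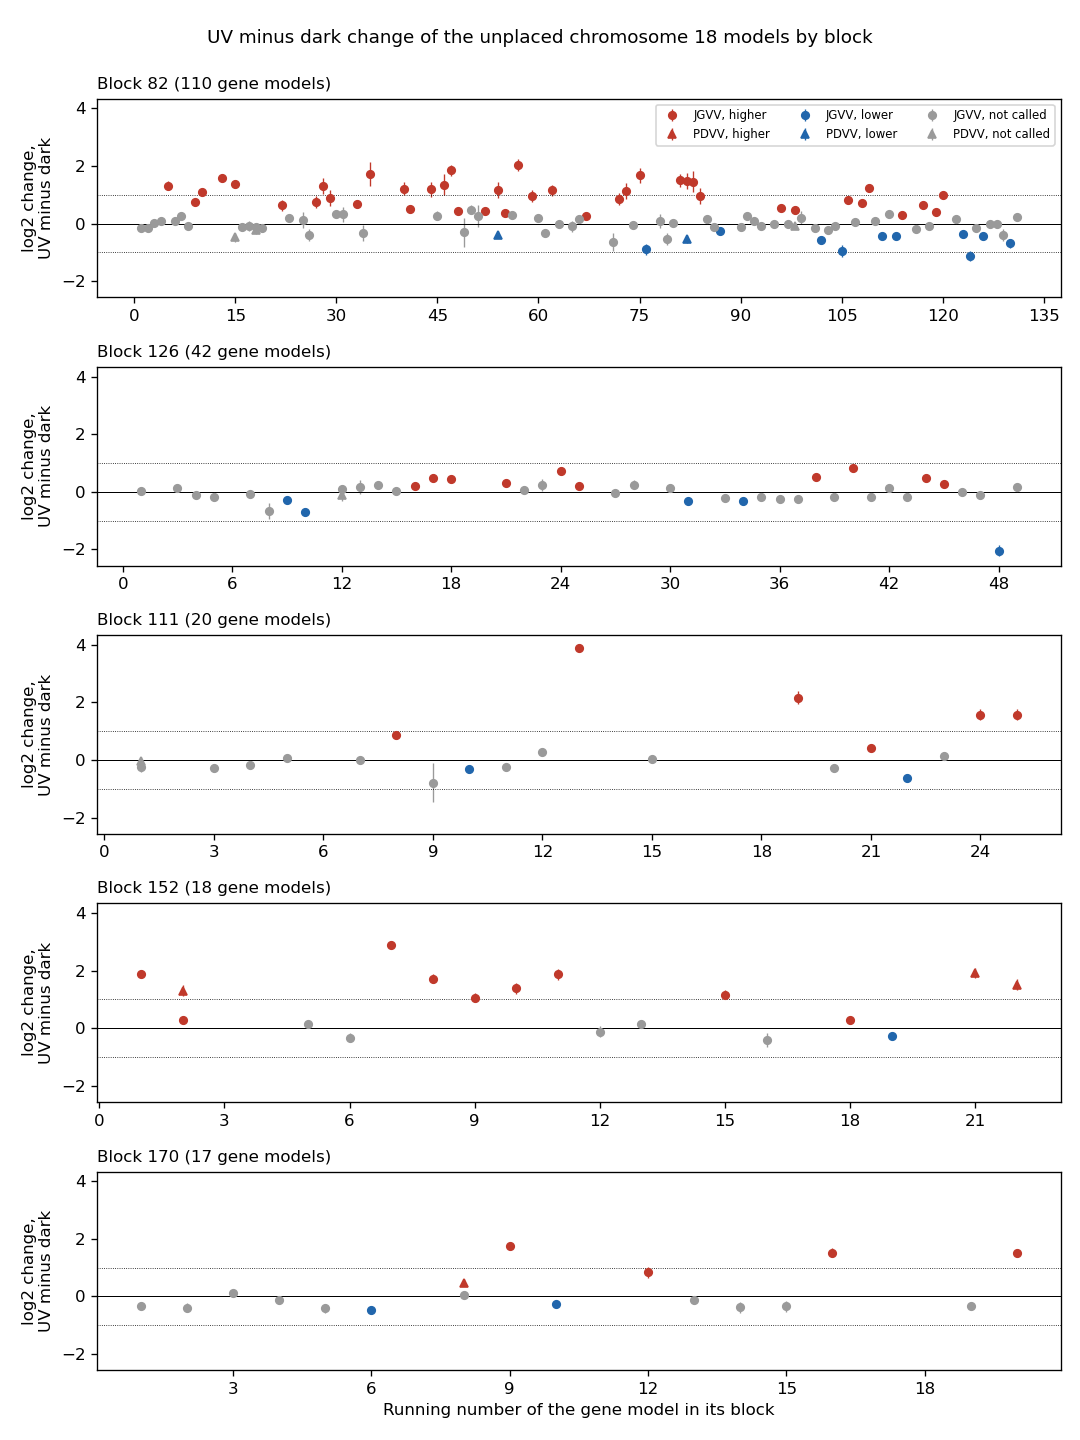
Log2 change, UV minus dark, of each of the 207 members with a block and a number, plotted against its running number, 1 panel per block; bars are standard errors of the fit, circles JGVV and triangles PDVV models, red called higher, blue called lower, grey not called, dotted lines at 1 and -1. Rises of over 1 fill most of block 152, recur through block 82 and are absent from block 126.

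Block 152 had the highest median of the blocks, with a log2 change of 1.11 (1.32, 1.11 and 0.90 on UV replicates 1, 2 and 3 against the dark mean). Its median intensity went from 5908 units in the dark to 14057 after UV. The highest member was CHR18_RANDOM_JGVV152_7_T01, with 3358, 3594 and 4196 units in dark replicates 1 to 3 and 23851, 22344 and 20178 units in UV replicates 1 to 3. Every UV array lay far above every dark array, the mean going from 3716 ± 432 to 22124 ± 1846 units (SD, n = 3 each). The log2 change of this set was 2.90 (SE 0.13), or 7.46-fold. Here and below, log2 changes and folds are those of background-corrected, quantile-normalized values, so they can differ from the ratio of the raw means printed beside them.

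Models 7 to 11 of block 152, all neighbours by number, rose without a gap. Their log2 changes ran from 1.06 to 2.90, with a median of 1.72. Model 8 measured 5498, 5031 and 7442 units in the dark and 18318, 16705 and 15266 after UV, a change of 1.72 (SE 0.15). Model 11 went from 5119, 5093 and 7196 units to 19727, 19906 and 14663, a change of 1.87 (SE 0.19). In both sets dark replicate 3 was the highest dark array and UV replicate 3 the lowest UV array, yet the groups stayed apart.

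Model 1 of block 152 also rose, from 5164, 4695 and 6666 to 17730, 18474 and 15473 units, a change of 1.90 (SE 0.13). All 3 PDVV models of the block rose by over 1. PDVV model 21 was the brightest of them, from 7487, 6871 and 10788 to 28777, 27416 and 25710 units, a change of 1.91 (SE 0.16). PDVV model 22 changed by 1.51 (SE 0.19), from a mean of 6003 ± 1028 to 14756 ± 2667 units (SD, n = 3 each).

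Model 15 of block 152 went from 6370, 6015 and 8376 to 15084, 13441 and 11548 units, a change of 1.16 (SE 0.16). The 8 remaining models of the block changed by less, from -0.40 to 0.28. JGVV models 2 and 18 were bright in both groups and rose by 0.27 (SE 0.06) and 0.28 (SE 0.06); both calls were lost without scaling between arrays, that of model 2 also without dark replicate 2 and that of model 18 also without UV replicate 2. Model 19 was the only call in the other direction, at -0.26 (SE 0.08), and that call was lost when any array other than UV replicate 1 was left out. Models 5, 6 and 16 were at background on all 6 arrays. Model 16 had the lowest fitted value of the block, -0.40 (SE 0.24), which was not called. Leaving out any 1 array left 11 or 12 rises in the block.

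Block 111 contained the largest rise of all members, CHR18_RANDOM_JGVV111_13_T01. Intensities were 3452, 2992 and 4210 units in dark replicates 1 to 3, and 45868, 43956 and 37044 units in UV replicates 1 to 3. The set moved from the dim part of the array to its bright part. After UV, 19.8% of all sets averaged over 30000 units, and no set of any array exceeded 63020 units. The mean was 3551 ± 615 units in the dark and 42289 ± 4642 after UV (SD, n = 3 each), and the normalized log2 change was 3.90 (SE 0.12), or 15.0-fold, and 3.66 without background correction.

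Its nearest neighbours by number, models 11, 12 and 15, were not called, with log2 changes of -0.23, 0.29 and 0.03. Model 19 rose from 2058, 1807 and 2989 to 8014, 6813 and 6674 units, a change of 2.17 (SE 0.22). The last models of the block by number, 24 and 25, moved almost alike. Model 24 went from 6629, 6616 and 9757 to 20470, 21863 and 16775 units, a change of 1.57 (SE 0.19). Model 25 went from 6002, 5592 and 9380 to 18175, 18410 and 15987 units, a change of 1.57 (SE 0.20).

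Between these risers of block 111 lay model 22, which fell by 0.61 (SE 0.14). It measured 3569, 3193 and 4708 units in the dark and 2419, 2565 and 2339 after UV. That call was lost without UV replicate 2 or UV replicate 3, and with the replicate number as a block. Model 9 had the lowest fitted value of the block, -0.79 (SE 0.67), without a call. That value rested on a single array: dark replicate 3 read 6050 units, the other dark arrays 1744 and 1320, and the UV arrays 1298, 1728 and 1221. Without dark replicate 3 its change was 0.03. Model 8 was at background on all dark arrays and above it on all UV arrays, and rose at least 1.12-fold.

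Block 82, the longest, had its rises spread from model 5 to model 120. Over runs of about 20 numbers, its JGVV models held 5 rises among 16 for numbers 1 to 19, 7 among 13 for 22 to 40, 10 among 16 for 41 to 60, 5 among 15 for 61 to 80, 6 among 16 for 81 to 99, 7 among 19 for 101 to 120, and 0 among 10 for 122 to 131. Falls numbered 0 in each of the first 3 runs, 1 in each of the next pair, and 4 in each of the last pair. The median dark intensities of these runs, in the same order, were 14535, 2589, 1800, 1245, 8284, 11335 and 6742 units. The dark arrays had medians of 9155 to 11200 units over all sets. The low numbers of the block were thus bright and the middle dim, while the high numbers lay near or below the array medians.

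The middle of the block, models 22 to 84, is a range set here after the values had been seen. Its 48 JGVV models had a median dark intensity of 1722 units, against 14535 for the 16 before it and 11335 for the 41 after it. In this dim stretch 26 models were called higher, 14 of them by over 1, and 1 was called lower. The median change was 0.43, with 0.56, 0.56 and 0.30 on UV replicates 1, 2 and 3 against the dark mean. Only 27 of the 48 were above background on all 6 arrays and 10 were above it on none. The count of rises depended on single arrays: it was 11 without dark replicate 1, 11 without dark replicate 2, 16 without UV replicate 2, and 24 without dark replicate 3. It was also 16 without scaling, and 13 with the replicate number as a block. The share of all sets called higher, 15.8% with all arrays, was 11.7%, 11.8%, 13.5% and 12.2% with these single arrays left out. That share was 9.95% without scaling and 12.7% with the replicate number as a block. Leaving out either dark replicate 1 or dark replicate 2 left 7 rises of over 1, and leaving out dark replicate 3 left 18. For rises of over 1 no share of all sets is given in these settings, so these counts show only the dependence on single arrays.

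The highest member of block 82 was model 57, with 1470, 1361 and 1938 units in the dark and 4142, 4920 and 3352 units after UV, a change of 2.04 (SE 0.21). Model 47 went from 1993, 1833 and 2677 to 5459, 6571 and 4703 units, a change of 1.85 (SE 0.19). The probes of model 47 agreed closely, with a median coefficient of variation of 0.128. Model 35 went from 1767, 1999 and 4002 to 6158, 7611 and 4316 units, a change of 1.72 (SE 0.42). Its groups came close, since dark replicate 3 at 4002 units was just below UV replicate 3 at 4316, and its call was lost without dark replicate 1, dark replicate 2, UV replicate 1 or UV replicate 2, and with the replicate number as a block.

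Within this stretch models 81, 82, 83 and 84 rose as neighbours. Model 81 measured 1395, 1357 and 1984 units in the dark and 2860, 3644 and 2445 after UV. Model 83 measured 2375, 2661 and 5000 units in the dark and 7527, 8511 and 5072 after UV, so that its groups only just separated. The calls of models 83 and 84 were lost when any array other than replicate 3 of either group was left out, while those of 81 and 82 were kept. The changes of the 4 models ran from 0.96 to 1.50. Model 75 was at background on all dark arrays (945, 861 and 1239 units) and above it on all UV arrays (1627, 1972 and 1408), a rise of at least 1.35-fold. Model 62 was likewise detected only after UV and rose at least 1.19-fold.

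Other models of the same stretch had small changes or fell. Model 63, next to model 62, measured 6408, 5147 and 5695 units in the dark and 5224, 5272 and 4857 after UV, a change of -0.02 (SE 0.09). Model 67 was bright, at 33155, 29790 and 32894 units in the dark, and rose by 0.27 (SE 0.06), a call that was lost without scaling between arrays. Model 76 was the only call in the other direction and was at background on all 6 arrays, so no fold is given, and its call was lost without dark replicate 1.

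Outside the middle stretch, 6 JGVV models of block 82 rose by over 1. Model 13 went from 3339, 3521 and 3595 to 7658, 8165 and 9249 units, a change of 1.58 (SE 0.12). Its 4 probes differed widely in brightness, with a median coefficient of variation of 1.50. Model 15 went from 13035, 14368 and 12556 to 31889, 29383 and 33015 units, a change of 1.37 (SE 0.13). Model 5 went from 16259, 17207 and 13784 to 40494, 34031 and 35084 units, a change of 1.32 (SE 0.15). The dark arrays of these brighter sets lay close together and the UV arrays stood apart from them. Model 10 was not above background in the dark and rose at least 1.20-fold.

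The falls of block 82 lay mostly at its high numbers. CHR18_RANDOM_JGVV82_124_T01 fell the furthest, from 7267, 4220 and 4854 to 2129, 2622 and 2726 units, a log2 change of -1.14 (SE 0.17). The mean went from 5447 ± 1608 to 2492 ± 319 units (SD, n = 3 each), and the normalized values dropped 2.20-fold. Model 105 was bright in the dark, at 47773, 43631 and 45489 units, and read 16563, 29284 and 25651 units after UV, a change of -0.94 (SE 0.20). UV replicate 1 was far below the other UV arrays there, and the call was lost without dark replicate 1 or dark replicate 2. Model 130 fell by 0.69 (SE 0.14), from 10394, 7709 and 8923 to 3986, 5970 and 5926 units. Next to model 105, model 106 rose by 0.82 (SE 0.09), from 28262, 25427 and 23621 to 43669, 42396 and 45110 units, so neighbours by number could move in opposite directions.

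Block 126 held no rise of over 1, with a median change of 0.04 (-0.087 without scaling between arrays) and 27 of 42 models not called. Its highest member, model 40, rose by 0.82 (SE 0.10), from 6951, 5360 and 7089 to 10564, 9175 and 9956 units. Models 16, 17, 18 and 21, neighbours among the measured models, rose by 0.21 to 0.48, but none of these 4 calls held without scaling between arrays, and those of models 16 and 21 were lost when any 1 dark array was left out. The largest fall of all 234 members was also here, CHR18_RANDOM_JGVV126_48_T01. It measured 4117, 5138 and 5241 units in dark replicates 1 to 3 and 1444, 1707 and 1249 units in UV replicates 1 to 3, remaining above the background limit on every array. The raw mean was 4832 ± 621 units in the dark and 1467 ± 230 after UV (SD, n = 3 each). On normalized values the log2 change was -2.04 (SE 0.21), a 4.11-fold drop, and it was -1.57 without background correction. Model 10 of the same block fell by 0.71 (SE 0.14), from 21251, 14400 and 15876 to 7942, 10063 and 11274 units.

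Block 170 was the dimmest, with a median dark intensity of 1537 units and 5 of 17 models above background on all arrays. Model 9 rose from 9506, 6593 and 7911 to 22328, 22221 and 24884 units, a change of 1.74 (SE 0.09). Model 20, the last by number, rose from 1741, 1571 and 1836 to 2875, 3315 and 4087 units, a change of 1.50 (SE 0.13). Model 16 passed from background in the dark (1272, 1035 and 1180 units) to above it after UV (1779, 1839 and 2304), a rise of at least 1.59-fold. In these 3 models UV replicate 3 was the highest UV array. Model 6 fell by 0.48 (SE 0.13), from a mean of 8522 ± 1699 to 5606 ± 428 units (SD, n = 3 each), a call that was lost without dark replicate 1, dark replicate 2, UV replicate 2 or UV replicate 3.

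Of the GSVIVT members, which carry no block, 20 of 27 were not called and the median change was -0.06. The highest rose from 9523, 7374 and 7505 to 20849, 22006 and 22859 units, a change of 1.63 (SE 0.10). Another changed by 1.57 (SE 0.32), with 1604, 1841 and 2790 units in the dark and 4575, 5311 and 3322 after UV. The lowest fell by 0.68 (SE 0.09), from 3367, 3212 and 3895 to 2045, 2406 and 2099 units.

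**Figure D3:**
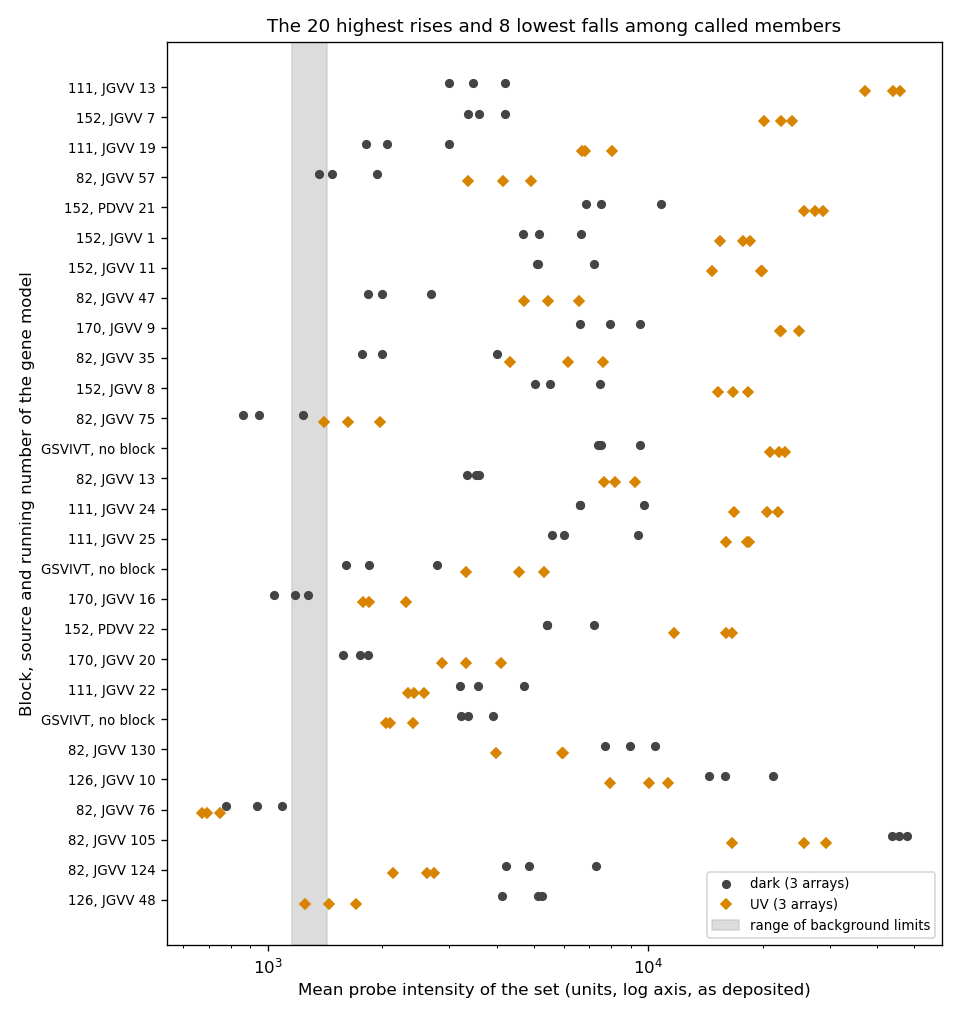
Intensity (units as deposited, log axis) on each of the 3 dark arrays (circles) and 3 UV arrays (diamonds) for the 20 highest rises and 8 lowest falls among called members, ordered by fitted change; the grey band spans the background limits of the 6 arrays. Dark and UV points do not overlap in any of these sets, and 3 sets have all dark points in or below the band.

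Raw arrays of the 2 groups did not overlap in 37 of the 39 members that rose by over 1. A call and a change of over 1 already favour separate groups, and raw overlap was not counted over all sets. Nothing is therefore read from this count. The exceptions were models 46 and 73 of block 82, whose calls were lost when any array other than a replicate 3 was left out. Calls could also be lost where raw arrays separated. Besides models 35 and 83, this held for models 28, 44 and 54 of block 82, without dark replicate 1 or dark replicate 2. On normalized values all UV arrays lay above all dark arrays in 85 members (36.3%), against 22.4% of all sets. All UV arrays lay below all dark arrays in 49 members (20.9%), against 32% of all sets. Detection after UV only, from background on all dark arrays to above it on all UV arrays, was found in 5 called members (2.14%), against 0.511% of all sets. The opposite course, with a call lower, was taken by 0 members, against 84 of all sets (0.284%). With so small a share over the array, nothing is read from that 0.

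Many of the members that rose most also shared a spread within the groups, which the choice of the label did not use. The risers and the range 22 to 84 were, however, picked from these same values. The counts below are thus description, neighbouring models are not independent cases, and no difference between these subsets was tested. In block 82, the 14 JGVV models between 22 and 84 that rose by over 1 had dark replicate 3 as their highest dark array in 13 cases and UV replicate 3 as their lowest UV array in 13 cases. In block 152 these numbers were 9 and 10 of 10, and in block 111 they were 4 and 3 of 4. Among the 1492 sets of the whole array that rose by over 1, dark replicate 3 was highest in 43.7% and UV replicate 3 lowest in 48.3%, and both held in 27.7%. Among the 117 placed models of chromosome 18 that rose by over 1, both held in 27.4%. Over the 234 members, changed or not, both held in 22.6%, against 11.5% of all sets.

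In the middle of block 82 the risers of over 1 deviated from their group mean by a median of 0.47 in dark replicate 3 and -0.41 in UV replicate 3, on the log2 scale. In block 152 the medians were 0.27 and -0.21. The 6 other JGVV risers of block 82 had UV replicate 3 lowest in 0 cases and dark replicate 3 highest in 1. In the 3 risers of block 170 the median deviation of UV replicate 3 was 0.29. In the 1492 sets of the whole array that rose by over 1, the medians were 0.04 in dark replicate 3 and -0.06 in UV replicate 3. They were -0.10 in dark replicate 1 and 0.12 in UV replicate 1. Over all sets, changed or not, no array had a median deviation beyond 0.0093. Quantile normalization gives all arrays the same distribution and keeps that median small, so it is no comparison for the risers. The risers of over 1 in the middle of block 82 and in blocks 152 and 111 thus mostly had both of these extremes at replicate 3. Their highest UV array differed: UV replicate 2 in 9 of 14 in the middle of block 82, UV replicate 1 in 8 of 10 in block 152. Of the 2 GSVIVT members that rose by over 1, 1 had both extremes at replicate 3.

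**Figure D4:**
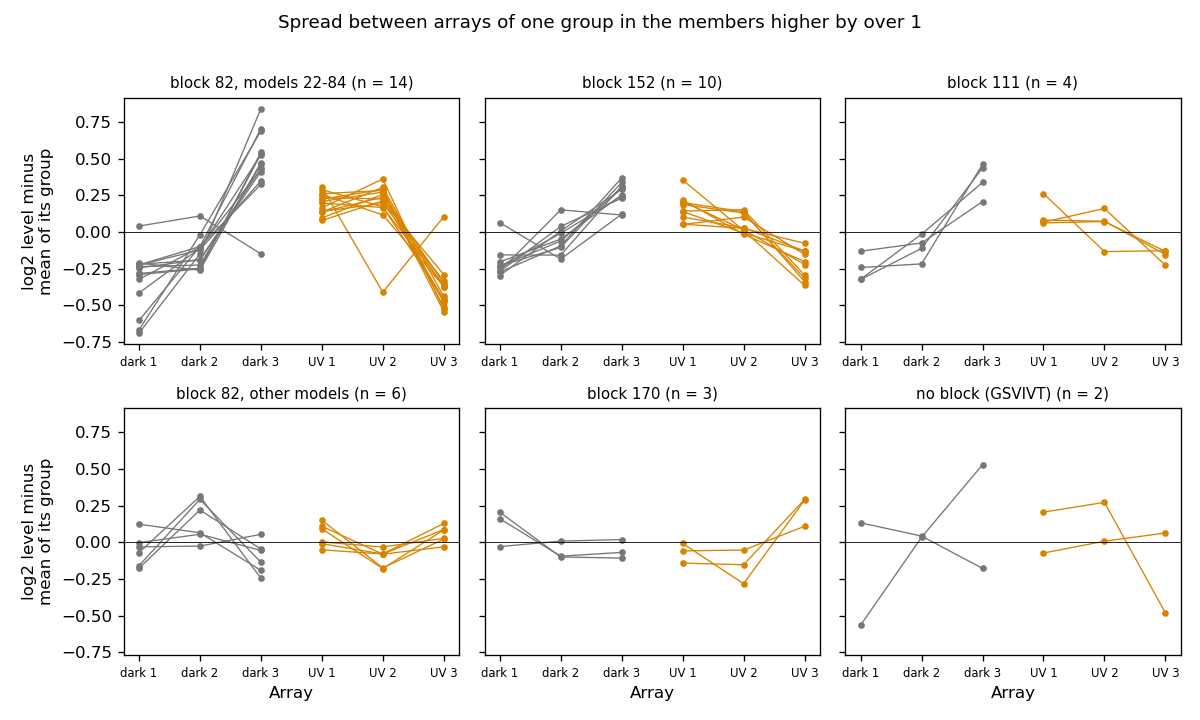
Normalized log2 level of each of the 39 members called higher by over 1, minus the mean of its own group, on the 3 dark (grey) and 3 UV (orange) arrays; lines only join the points of a set. In block 82 models 22 to 84 and in blocks 152 and 111, nearly all sets are high in dark replicate 3 and low in UV replicate 3. The 6 other models of block 82 and the 3 of block 170 do not show both.

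With replicate 3 of both groups left out, 43 members rose by over 1 and 58 were called higher, while 9.54% of all sets were called higher, against 15.8% with all arrays. The share of all sets that rose by over 1 is not given for this setting, so nothing is read from the 43. The median change of block 152 was then 1.37, and that of the middle of block 82 was 0.57. The labels give no separate treatment, slide or cluster position to these replicates.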

How the data were processed

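RNA from 3 dark and 3 UV samples was hybridised to NimbleGen arrays after Cy3 labelling by the maker, per the labels' protocols. Per the file headers, the deposited intensity is the mean of the perfect-match probes of a set on a linear scale, and the deposited coefficient of variation is a ratio of their SD to that mean. Array medians differed, so intensities were treated as not normalized. The authors also deposited a log10 value table for 23096 sets, 155 of them members. Its column differences had a slope of 1 and r of 1 against log10 intensity in all 15 pairs of arrays; direction is therefore UV over dark as labelled, while its centring per set and baseline stay unknown. Column medians were -0.00018, 0.0100 and 0.0072 for dark replicates 1 to 3, and -0.0174, -0.0057 and -0.0121 for UV replicates 1 to 3. The image software, genome build and gene model version were not given in the sources used here.

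Intensities were corrected by the normexp method with an offset of 50, the row of random probes included, then quantile-normalized on the log2 scale and fitted with lmFit and eBayes in limma 3.58.1 (R 4.3.3), UV minus dark, two-sided, without covariates, with Benjamini-Hochberg adjustment over 29549 sets. Members were read off that fit, which was tested on simulated data. The number of arrays, 3 per group, limits the precision (median SE 0.115 for members, 0.0963 for all sets). Lower bounds of fold compare the UV mean with the lowest signal above background on the dark arrays, on quantile-scaled values without background correction. Printed identifiers are those of the 2 largest rises and 2 largest falls. Other members are named by block and number: the 20 highest rises, the 8 lowest falls, and the extremes of each block. Neighbours of those, and others named besides, were picked after their values had been seen. The members, blocks and rules were chosen with earlier results of these data known. Alternatives covered background correction, scaling, the authors' table, filters on dim sets, a variance trend, a replicate block and leaving out each array. Same-numbered arrays did not deviate together.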

Additional observations from a re-analysis of the deposited data

How the results depend on the processing

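The members' counts held within 1.5 times under most alternatives. Without scaling between arrays, 50 members were called higher, against 9.95% of all sets. The median change was then -0.060 for unplaced and -0.175 for placed models of chromosome 18. The median of all sets went from -0.05 to -0.17, and the shift differed between sets. The median of placed models was -0.040 without background correction, -0.033 with median centring and -0.061 in the authors' table. Falls of over 1 numbered 1 without background correction. With single arrays left out there were 52 to 75 rises, 16 to 24 falls, 30 to 43 rises and 1 to 3 falls of over 1, and medians of 0.029 to 0.092 for unplaced and -0.053 to -0.046 for placed models. Over all sets 11.7% to 14.2% were called higher in these settings and 13.5% to 19.1% lower. Leaving out dark replicate 1 gave 16 falls, dark replicate 3 gave 17, and replicate 3 of both groups, an alternative chosen after seeing the data, gave 10; the cause was not tested. The replicate block gave 58 members higher and 21 lower, with 12.7% of all sets called higher and 16.3% lower. Arrays of one number had deviations that correlated at -0.044, -0.059 and -0.033. Model 9 of block 111, not called, changed by -1.31 to 0.030 with single arrays left out and by 0.17 without replicate 3 of both groups. No called member was called the other way in any of these alternatives, and 1 had the other sign without scaling. In the authors' table, 58 of 155 members were called higher, against 17.5% of all its sets, and 26 by over 1. The share of all sets that rose by over 1 is not given for the alternatives, so nothing is read from those counts. Signal near background limits the folds of the 74 members not above it on all arrays, and in the dim middle of block 82 the rises of over 1 numbered 8 without background correction, 8 among sets above background on all arrays and 6 above the 25th percentile of brightness, where fewer sets were tested.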

Other observations

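The blocks differed in brightness as well as in change. Detection on all 6 arrays held for 15 of 18 models in block 152, 80 of 110 in block 82, 30 of 42 in block 126, 12 of 20 in block 111, 18 of 27 GSVIVT models and 5 of 17 in block 170. The members that rose by over 1 had dark means from 1015 to 15750 units, with a median of 3485, against a median of 5358 for the other members. The dark level enters the change, so the difference between these medians has no reading of its own. Bright members were fewer than on the array: 23 (9.83%) averaged over 30000 units after UV, against 19.8% of all sets. By source, 69 of 196 JGVV, 4 of 11 PDVV and 3 of 27 GSVIVT members were called higher, against 4262 of 26324 JGVV, 167 of 1180 PDVV and 227 of 2045 GSVIVT sets on the whole array.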
